A study of Homo sapiens with 3 samples.

Results

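Genes that carry a symbol of the mitochondrial ribosomal proteins were followed in ribosome profiling of HEK293T cells, with and without the aminoglycoside G418. Members were chosen by symbol alone, as every transcript of a gene named MRPL or MRPS with a number and at most 1 letter that was listed in all 3 deposited tables. This gave 54 transcripts of 8812, of which 32 carry a large subunit symbol (MRPL) and 22 a small subunit symbol (MRPS). The study's minimum of reads per transcript, applied to the mean count in the coding sequence (CDS), left 53 of them, among 5684 transcripts in all, and results concern these unless stated. MRPL49 fell below the minimum, with 88 and 149 CDS reads in the untreated libraries, 120 in G418 A and no read past its stop codon in any library. GENCODE version 44 names 78 protein-coding genes of this pattern, and the other 24 were not analysed here.

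Mitochondria keep a small genome whose messages for respiratory chain subunits are read by a ribosome of their own. The RNA of that ribosome is made inside the organelle, but all of its proteins are encoded in the nucleus, translated by cytosolic ribosomes and imported. Many of these proteins descend from bacterial ribosomal proteins and keep their number, such as MRPS12 for bacterial S12, whereas others have no bacterial relative. Symbols do not always give the place in the structure, and MRPS30 and MRPS18A are found in the large subunit. In these libraries the genes are read by the cytosolic ribosome like any other nuclear message. G418 binds the decoding centre of the ribosome and lowers its accuracy, so that a stop codon can be read as an amino acid, which is termed readthrough.

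HEK293T is an established human line, made from embryonic kidney and expressing SV40 large T antigen. The untreated group had 2 libraries, Untreated A and Untreated B, and the G418 group had 1 library, G418 A, from cells held for 24 hours in 500 µg/mL G418. Library depth, as the reads behind the deposited scale, was 5857230 (Untreated A), 9477972 (Untreated B) and 7216039 (G418 A). Of 8 markers listed for HEK293T cells, 6 were present in all libraries (CDH2 and PAX2 were not listed), and of 9 markers of blood, liver, fibroblast, endothelial and red cells 1 was listed, COL1A1. Because G418 had a single library, nothing is known of its spread between cultures, and every test given here assumes that it varies as the untreated libraries do. Ribosome-protected reads reflect both the amount of an mRNA and the ribosomes on each copy, and a scale per common total gives shares of a total, so none of these can be told apart here.

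CDS density asks whether the cells put more or fewer ribosomes on these messages after G418. As a group their values lay close to those of all transcripts. The log2 change of CDS RPM (reads scaled to a common total of assigned reads) in G418 A over the untreated mean had a median of 0.08 over the 53 members, from -0.51 in MRPL2 to 0.69 in MRPS15, with quartiles of -0.09 and 0.21. The median over all 5684 transcripts was 0.07. The median size of the change, ignoring its sign, was 0.16, and that of the log2 difference between Untreated B and Untreated A was 0.15 over the same members. The change was positive for 33 members and negative for 20, against 3360 and 2324 of all transcripts.

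G418 A lay above both untreated libraries for 26 members (49.1%), against 46.3% of all transcripts, and below both for 13 members (24.5%), against 27.9% of all transcripts. With median-of-ratios scaling these counts were 17 and 17 (32.1% each), against 36.7% and 36.6%. By edgeR's quasi-likelihood test with Benjamini-Hochberg adjustment over all transcripts, 1 member was higher, against 3.04% of transcripts, and 0 were lower, against 0.581%. At an unadjusted p under 0.05, 4 members passed (7.55%), against 14.9% of all transcripts. Over all transcripts 173 were called higher and 33 lower, or 84.0% higher, and this split became 110 and 41 (72.8% higher) with TMM scaling and 10 and 16 (38.5% higher) with DESeq2. With DESeq2, 0 members passed after adjustment, against 0.457% of transcripts, and 2 (3.77%) before it, against 7.02%.

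**Figure D1:**
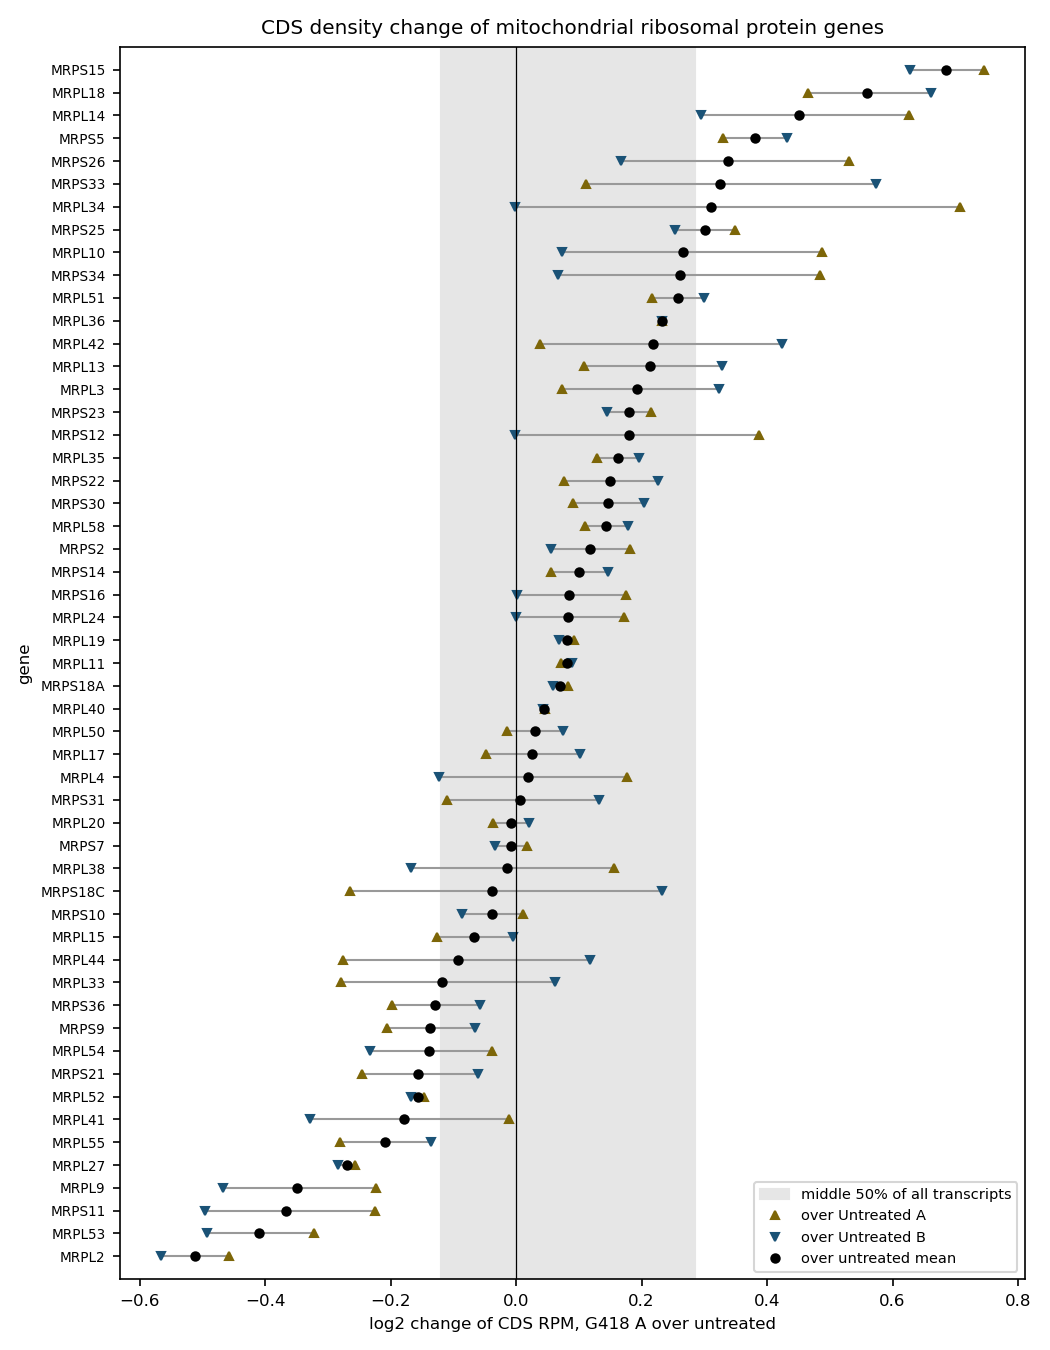
Log2 change of CDS RPM in G418 A for each of the 53 members, in order of size. Black points give the change over the untreated mean, triangles the change over each untreated library, and the grey band the middle 50% of all 5684 transcripts. Most members lie inside the band, MRPS15 is highest at 0.69 and MRPL2 lowest at -0.51.

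MRPS15, the counterpart of bacterial S15, was the member that passed. Its CDS RPM was 65.6 in Untreated A and 71.1 in Untreated B (mean 68.3 ± 3.93, SD, n = 2) and 109.9 in G418 A. The log2 change was 0.69 and the adjusted p of edgeR's quasi-likelihood test 0.0241, with G418 A above both untreated libraries. This call was lost with TMM scaling (adjusted p = 0.0702 by edgeR), with median-of-ratios scaling (0.0725), with a minimum of 500 CDS reads (0.0834) and with DESeq2 (0.330).

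Among the other members with the largest positive change, none passed. MRPL18, the counterpart of bacterial L18, had 75.8 and 66.1 CDS RPM in the untreated libraries A and B and 104.6 in G418 A (log2 change 0.56, edgeR adjusted p = 0.0888). MRPL14 had 57.5, 72.4 and 88.8 CDS RPM in the same order (log2 change 0.45, edgeR adjusted p = 0.261). MRPS5, the counterpart of bacterial S5, had 71.5, 66.7 and 89.9 CDS RPM (log2 change 0.38). In each of these G418 A was above both untreated libraries. MRPS26 had 44.1, 56.7 and 63.6 CDS RPM (log2 change 0.34) and MRPS25 had 24.6, 26.3 and 31.3 (0.30), both mitochondria-specific proteins of the small subunit. MRPS33, of the same kind, had 55.7, 40.4 and 60.1 CDS RPM (log2 change 0.32). For MRPL34, at 13.5, 22.05 and 22.03 CDS RPM (0.31), the untreated libraries differed by more (log2 difference 0.71) than the change, and G418 A lay between them.

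Among the members with the most negative change, none passed either. MRPL2, the counterpart of bacterial L2 near the peptidyl transferase centre, had 104.8 and 113.0 CDS RPM in the untreated libraries A and B and 76.4 in G418 A (log2 change -0.51, edgeR adjusted p = 0.139). MRPL53, a mitochondria-specific protein of the large subunit, had 35.5, 39.99 and 28.4 CDS RPM (log2 change -0.41, edgeR adjusted p = 0.563). MRPS11, the counterpart of bacterial S11, had 57.4, 69.2 and 49.1 CDS RPM (log2 change -0.37). MRPL9 and MRPL27 have bacterial counterparts too, with log2 changes of -0.35 and -0.27. MRPL55, MRPL41 and MRPL52, which have none, had changes of -0.21, -0.18 and -0.16. All 8 had G418 A below both untreated libraries.

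Members were then grouped by the parts of the ribosome. The median log2 change was 0.03 for the 31 members with a large subunit symbol and 0.11 for the 22 with a small subunit symbol. It was 0.08 for the 32 members whose number has a bacterial counterpart and 0.04 for the 21 without. Beside them, the 61 cytosolic ribosomal proteins had a median of 0.18, with 3 called higher and 0 lower, and the 59 nuclear-encoded genes of oxidative phosphorylation had a median of -0.09, with 0 called higher and 5 lower. Over all transcripts 3.04% were called higher and 0.581% lower. Differences between these groups were not tested.

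The score for readthrough of the normal termination codon (NTC) was much higher in G418 A than in either untreated library. Readthrough was measured as the ribosome readthrough score (RRTS), the density of reads from the NTC to the next stop codon in frame (3′TC). It was given in percent of the density in the CDS, without the first 6 nt. The counted region includes the 3′TC, and for the 5 members without one it runs through the 3′ untranslated region (3′UTR). Pooled over the 53 members, the RRTS was 1.76% in Untreated A (exact 95% Poisson interval 1.36 to 2.25) from 65 reads and 1.19% in Untreated B (0.933 to 1.51) from 71 reads. In G418 A it was 25.3% (23.9 to 26.7) from 1209 reads. With an untreated mean of 1.48% ± 0.403 (SD, n = 2), this was a 17.1-fold difference, and the untreated libraries differed from each other by 1.48-fold. Over all 5684 transcripts the RRTS in the same order was 1.57%, 1.25% and 21.3%, a 15.2-fold difference. With at least 500 CDS reads the differences were 29.1-fold for 29 members and 16.5-fold for all transcripts. Intervals cover counting error only. In the study, 3′UTR reads kept the reading frame of the CDS with G418 but not in untreated cells. Frame was not examined here, so untreated reads past the NTC are not shown to come from readthrough.

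Few members drew many of the reads. MRPS2, MRPL42, MRPS18A, MRPL14 and MRPL51 together held 471 of the 1209 readthrough reads in G418 A, or 39.0%. The median RRTS in G418 A was 22.3% over members and 18.4% over all transcripts, and in both untreated libraries it was 0%. At least 1 readthrough read was found for 25 and 22 members in the untreated libraries A and B and for 47 in G418 A. In the same order this was 47.2%, 41.5% and 88.7% of members, against 24.0%, 22.3% and 75.8% of all transcripts. For a member of median depth, 3 reads amounted to 6.95% (Untreated A), 4.39% (Untreated B) and 5.10% (G418 A) on the RRTS scale. Low untreated scores of single genes were therefore mostly not detectable at this depth.

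The RRTS in G418 A lay above both untreated values for 45 of 53 members (84.9%), against 72.0% of all transcripts. Members were read more deeply than most transcripts, with a median CDS density of 125 RPKM (RPM per kilobase) in Untreated A against 37.7 RPKM for all transcripts, and the part of this in the count was not tested. The 8 exceptions were MRPL2, MRPL19, MRPL52, MRPS15, MRPS18C and MRPS22, each with 0 readthrough reads in G418 A, MRPL20 and MRPS16. MRPL20 had 2, 7 and 3 readthrough reads in Untreated A, Untreated B and G418 A, and scores of 13.8%, 31.1% and 17.3%.

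**Figure D2:**
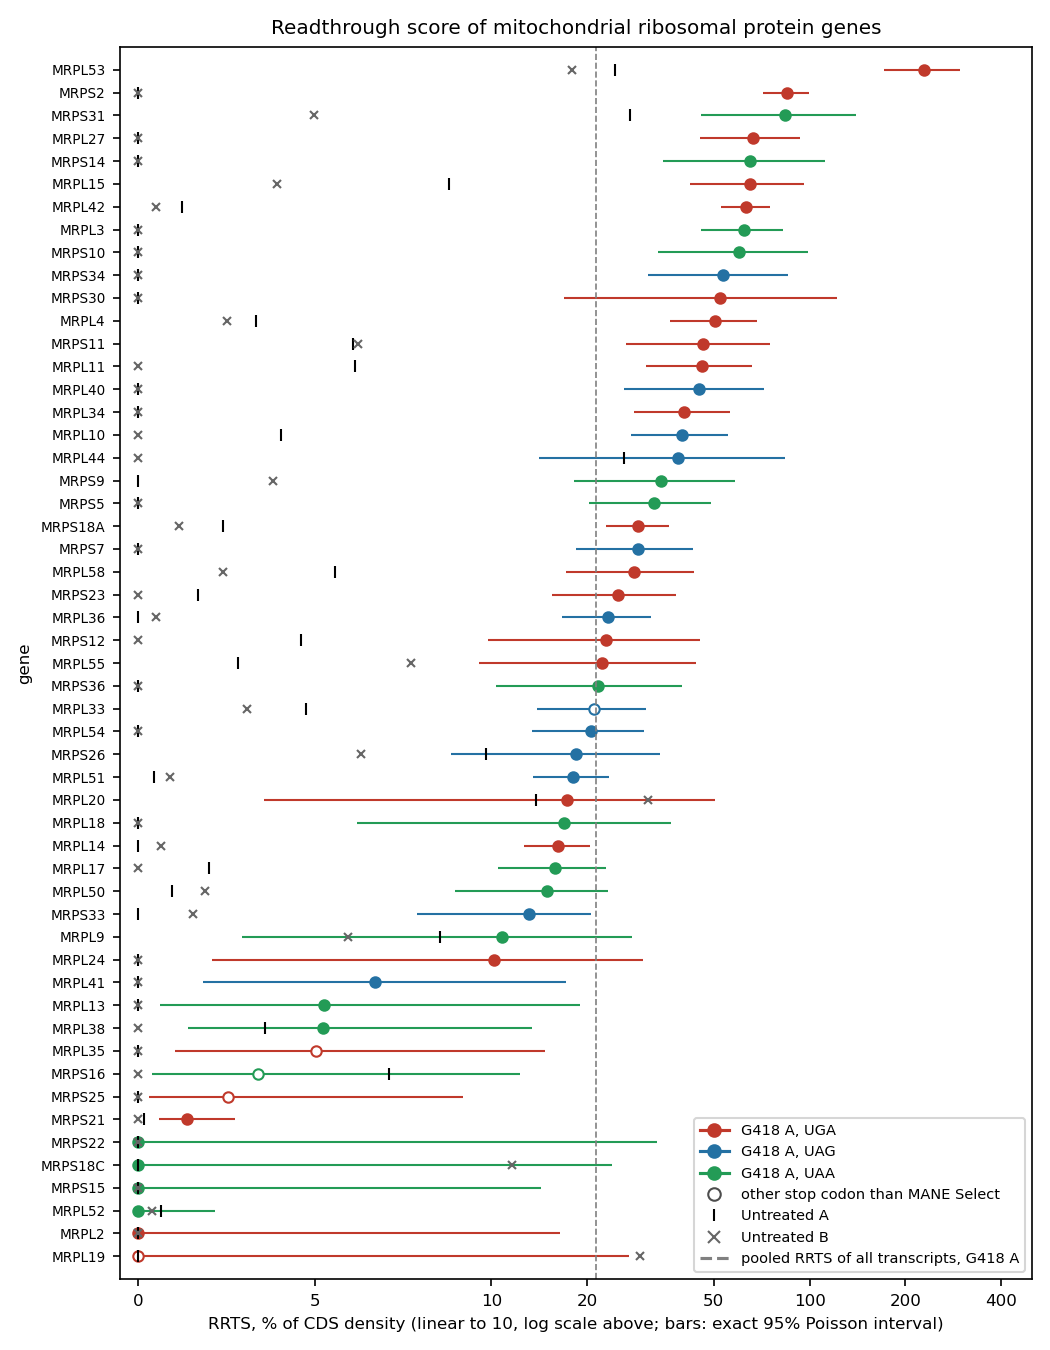
RRTS of each of the 53 members in G418 A (points with exact 95% Poisson intervals, coloured by stop codon), Untreated A (vertical ticks) and Untreated B (crosses), on an axis that is linear to 10% and logarithmic above. Open points mark members whose transcript ends at another stop codon than the MANE Select transcript, and the dashed line is the pooled 21.3% of all transcripts. MRPL53 stands alone above 100%, and 6 members sit at 0.

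By edgeR's quasi-likelihood test on readthrough reads relative to CDS density, adjusted over all transcripts, 4 of 53 members (7.55%) were higher in G418 A, against 3.85% of all transcripts, and 0 were lower. They were MRPS2, MRPL42, MRPL3 and MRPL14. At an unadjusted p under 0.05, 15 members passed (28.3%), against 12.6% of all transcripts. DESeq2 called 0 members and 0 transcripts in all, with 9 of the 50 members it gave an adjusted p and 9.19% of transcripts at an unadjusted p under 0.05. On simulated data the edgeR test called few of the transcripts in which readthrough had been raised, so a member that did not pass is not shown to be unchanged. A test of counts alone, which compares these libraries and not the conditions, called 36 members (67.9%) higher, against 49.4% of all transcripts.

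The sequences around the stop codons of the members with the highest RRTS in G418 A are given first, since the stop codon and the bases beside it are what the ribosome reads when it ends or goes on. Each line gives 30 nt of the mRNA strand from GENCODE version 44 transcripts on hg38, written as DNA, with the stop codon and the next base in capitals and the coordinates of the stop codon. All lie in the last exon, and the bases after the stop codon belong to the 3′UTR. The sequence of MRPL15, which also ranks here, is not shown.
MRPL53, chr2:74472119-74472121, minus strand, exon 3 of 3: gctgatactggtcgcTGACagcgccaaaga
MRPS2, chr9:135504131-135504133, plus strand, exon 4 of 4: atgagccattccctgTGATgttcactctcc
MRPL27, chr17:50368092-50368094, minus strand, exon 4 of 4: ctggtagctatgcttTGATgtcctgttgag
MRPL42, chr12:93501219-93501221, plus strand, exon 6 of 6: cctccaaaagacagaTGATgcggaggttcc
MRPL3, chr3:131462723-131462725, minus strand, exon 10 of 10: tctattacatttgccTAACatctttggacg
MRPS31, chr13:40729372-40729374, minus strand, exon 7 of 7: aacatacagttcaatTAAGaccatggaaat
MRPS14, chr1:175014669-175014671, minus strand, exon 3 of 3: cagcgagcgacatggTAAAtgagctccaga
MRPS10, chr6:42208289-42208291, minus strand, exon 7 of 7: gaagaaagcaagtcaTAAAgcctcagggag
MRPS34, chr16:1772221-1772223, minus strand, exon 3 of 3: aagggcacccccgtcTAGAatgccagaacc

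MRPL53 was the member with the highest RRTS in G418 A and the 1 member of 53 with a score above 100% there, a level that 7.14% of all transcripts passed. Its stop signal is UGAC, and the next stop codon in frame, UAG, would add 14 codons. It had 6 and 8 readthrough reads in the untreated libraries A and B and 55 in G418 A, over a counted region of 36 nt. The RRTS was 24.5% (8.998 to 53.4), 17.9% (7.75 to 35.4) and 228% (172 to 297) in the same order. The score is a ratio of densities, so a value above 100% is not a share of ribosomes that read through. The counted region includes the 3′TC, where the study reports ribosomes enriched with G418, and the part of this in the score was not tested.

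In densities, MRPL53 had 28.5, 23.4 and 212 RPKM past the stop codon and 116, 131 and 92.8 RPKM in its CDS. Both untreated values were already far above the pooled value of the members, with a mean of 21.2% ± 4.65 (SD, n = 2). The score in G418 A was 11.2 times that of the untreated libraries together (counting interval 6.17 to 21.9). The adjusted p of edgeR's quasi-likelihood test was 0.264, so the difference did not pass. Without MRPL53 the pooled RRTS of the members in G418 A was 24.2% and the difference 18.1-fold. MRPL53 has 1 annotated pseudogene, with which it may share reads.

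MRPS2, the counterpart of bacterial S2, had 0 readthrough reads in both untreated libraries and 141 in G418 A, where 166 would match its CDS density. Its RRTS in G418 A was 84.7% (71.3 to 99.9), at least 93.0-fold higher than 3 reads over both untreated libraries would give, and the adjusted p of edgeR's quasi-likelihood test was 1.73e-04. It ends in UGAU, and 71 codons precede its 3′TC. Its CDS density changed by 0.12 on the log2 scale.

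MRPL42, a mitochondria-specific protein of the large subunit that also ends in UGAU, had 2, 1 and 127 readthrough reads in Untreated A, Untreated B and G418 A. Its RRTS was 1.26%, 0.509% and 63.3%, or 74.9-fold higher in G418 A (counting interval 25.1 to 368), with an adjusted p of 0.00495 by edgeR's quasi-likelihood test. MRPL42 has 5 annotated pseudogenes.

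MRPL3, the counterpart of bacterial L3 near the peptidyl transferase centre, ends in UAAC and had 0, 0 and 47 readthrough reads. Its RRTS in G418 A was 62.2% (45.7 to 82.7), at least 28.5-fold higher than the untreated limit (edgeR adjusted p = 0.0346). MRPL14, the counterpart of bacterial L14, had 0, 3 and 70 readthrough reads and an RRTS of 0%, 0.649% and 16.2% (edgeR adjusted p = 0.0478), so that it passed with a score below the pooled one. Its counted region of 273 nt would hold 432 reads in G418 A at the CDS density. In all 4 members that passed, G418 A was above both untreated libraries. MRPS2 and MRPL42 passed under every setting of the edgeR test, whereas MRPL3 and MRPL14 were lost with no minimum of CDS reads (edgeR adjusted p = 0.0511 and 0.0718), and MRPL14 also when regions under 60 nt were left out (0.0558), among them that of MRPL3. None of the 4 passed with DESeq2 (adjusted p = 0.531).

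The remaining members with a high RRTS had fewer reads. MRPL27, whose bacterial counterpart reaches towards the peptidyl transferase centre, had 0, 0 and 32 readthrough reads and scored 66.2% in G418 A, at least 27.4-fold above the untreated limit (edgeR adjusted p = 0.0928). MRPS31, a mitochondria-specific protein of the small subunit, had 4, 1 and 14 readthrough reads and an RRTS of 27.3%, 4.98% and 83.6%. Reads lay in its readthrough region without the drug too, and the score was 5.81-fold higher with it (counting interval 1.98 to 20.6). MRPS31 has 4 annotated pseudogenes, which may share its reads. MRPL15, the counterpart of bacterial L15, had 3, 2 and 25 readthrough reads and an RRTS of 8.81%, 3.95% and 65.03%. MRPS14 had 13 readthrough reads with the drug (65.1%), MRPS10 15 reads (59.8%) and MRPS34 17 reads (53.4%), with 0 in both untreated libraries for each.

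**Figure D3:**
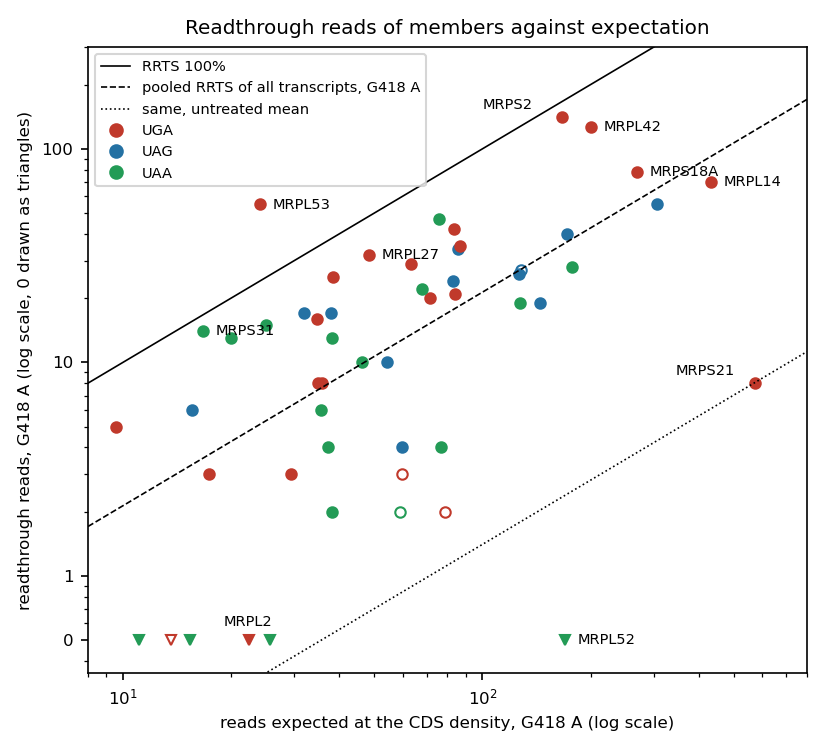
Readthrough reads in G418 A of each member (vertical, log scale, 0 drawn as triangles) against the reads its CDS density would give in the same region (horizontal, log scale), coloured by stop codon and open where the transcript ends at another stop codon than MANE Select. Lines mark an RRTS of 100%, the pooled 21.3% of all transcripts in G418 A and their untreated mean of 1.41%. MRPL53 lies above the 100% line, MRPS2 and MRPL42 hold the most reads, and MRPL52 and MRPS21 lie lowest for the reads expected of them.

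At the other end stood the members with the lowest RRTS in G418 A among those with at least 20 reads expected from CDS density. Their stop codon contexts are given for comparison with those above, in the same form.
MRPL2, chr6:43054274-43054276, minus strand, exon 7 of 7: gcttctgcccaaagcTGATatccctgtact
MRPS21, chr1:150308226-150308228, plus strand, exon 3 of 3: ccgtggcagggctgcTGAGgcctgtgggtg
MRPS25, chr3:15049827-15049829, minus strand, exon 4 of 4: aggttgaggctggagTGAGccatgactgta
MRPL52, chr14:22834319-22834321, plus strand, exon 5 of 5: ccacttccaagtcaaTAAAaagcaactcct
MRPS15, chr1:36455788-36455790, minus strand, exon 8 of 8: ctcaaagacagccaaTAAAttctgttcaat
MRPS16, chr10:73249293-73249295, minus strand, exon 3 of 3: tattcccatgtgtttTAAAagcctgaagtc

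MRPL52, a mitochondria-specific protein of the large subunit, had 1, 1 and 0 readthrough reads where its CDS density would give 170 in G418 A. Its RRTS was 0.656%, 0.3998% and 0%, with an upper limit of 2.17% in G418 A, against 25.3% pooled over the members. It ends in UAAA. MRPS21, the counterpart of bacterial S21, ends in UGAG and had 1, 0 and 8 readthrough reads where 574 would match its CDS density in G418 A. Its RRTS was 0.181%, 0% and 1.39% (0.601 to 2.74), so that a low score with the drug stood over a still lower one without it, in a ratio of 18.7 (counting interval 2.50 to 828). MRPS21 has 8 annotated pseudogenes, which may share its reads.

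MRPL2 ends in UGAU like MRPS2, MRPL27 and MRPL42, but had 0 readthrough reads in all libraries. At its depth in G418 A 3 reads would score 13.4%, and 0 reads allow up to 16.5%. MRPS15, the member called higher in CDS density but not under every setting, had 0 readthrough reads in all libraries as well. For it 0 reads allow up to 14.4% in G418 A. Both limits lie below the pooled 25.3% of the members, and readthrough under them was not detectable at this depth. MRPS25 had 0, 0 and 2 readthrough reads and MRPS16 had 3, 0 and 2, and scored 2.54% and 3.40% with the drug.

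MRPS25 and MRPS16 share another feature. The authors took the transcript with the 3′-most stop codon of each gene, and for 6 of the 54 members (MRPL19, MRPL33, MRPL35, MRPL49, MRPS16 and MRPS25) this is another stop codon than that of the MANE Select transcript, the reference isoform in the annotation. The 5 of these that were deep enough had a pooled RRTS of 10.0% (6.95 to 14.0) in G418 A from 34 reads, of which MRPL33 held 27, and the 48 others had 26.4% (24.9 to 27.98). Over all transcripts the values were 5.08% for 384 that end elsewhere and 24.4% for 5058 that end at the MANE Select stop codon. The transcript of MRPS22 differed in CDS length from the reference, and the other 53 matched. No readthrough position of these 53 lies in another annotated CDS on either strand.

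By stop codon, the pooled RRTS of the members in G418 A was 29.5% (27.4 to 31.7) for the 23 that end in UGA, 22.4% (19.9 to 25.2) for the 12 in UAG and 18.7% (16.2 to 21.5) for the 18 in UAA. The values over all transcripts were 29.9%, 19.2% and 12.2%. The order was the same, and the members that end in UAA had a higher value than UAA transcripts at large. Without the drug the members had 1.69%, 1.72% and 1.99% for UGA, UAG and UAA in Untreated A, where the order was not seen, and 1.38%, 1.01% and 0.967% in Untreated B, where it was, from at most 43 reads each and with overlapping intervals. The stop codons were used in much the same shares as elsewhere, with 43.4% UGA, 22.6% UAG and 34.0% UAA against 48.9%, 21.1% and 30.01%. These are descriptions of single libraries over few genes and carry no test.

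**Figure D4:**
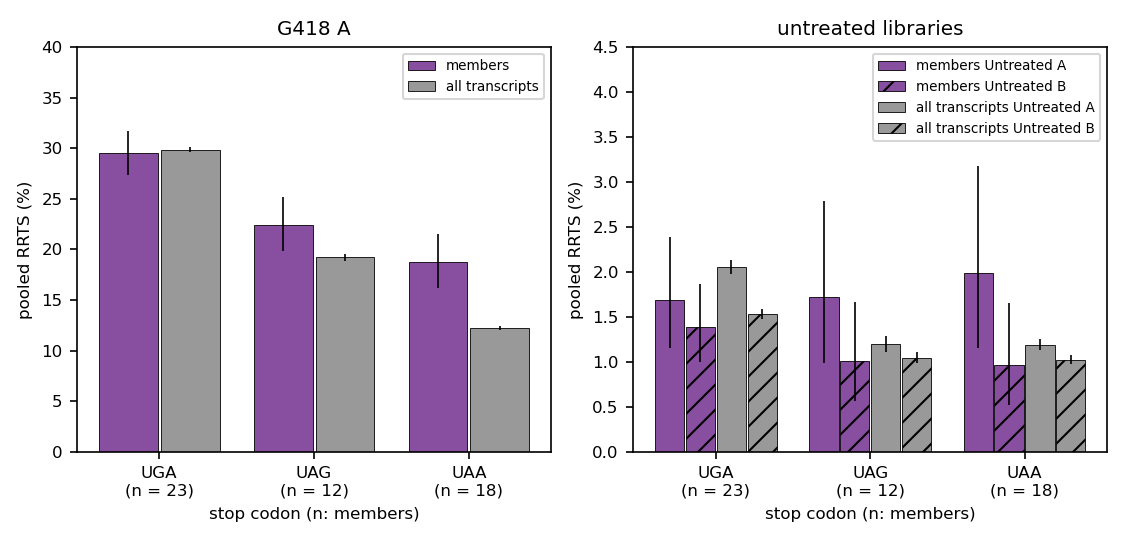
Pooled RRTS by stop codon for the members (purple) and for all 5684 transcripts (grey), in G418 A (left) and in both untreated libraries (right, on a smaller scale, Untreated B hatched), with exact 95% Poisson intervals as error bars. In G418 A the members fall from 29.5% for UGA to 18.7% for UAA, and in the untreated libraries all bars stay below 2.5%.

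With the base after the stop codon included, the members spread further. The 6 that end in UGAU had a pooled RRTS of 64.4% (57.9 to 71.5) in G418 A against 36.4% for all 376 such transcripts, and came from MRPS2, MRPL27, MRPL42, MRPL4 (50.5%), MRPS11 (46.2%) and MRPL2 (0%). The 5 in UGAC had 41.6% against 38.7%. MRPL53 held 55 of the 178 reads behind this value, and the medians ran the other way, at 28.9% against 38.7%. The 5 in UGAA had 28.1% against 32.8%. The 7 in UGAG had 9.82% (8.15 to 11.7) against 22.8%, from 40.4% in MRPL34 to 0% in MRPL19. Among them, MRPS21 had a low score and the most reads expected in G418 A of any member, so it weighs heavily in this value. MRPL19 and MRPS25 end at another stop codon than MANE Select, and the value without these members is not given here. Of the UAA signals, the 4 in UAAC had 29.2% against 20.5%, the 5 in UAAG 17.5% against 8.56% and the 9 in UAAA 10.0% against 11.0%. The 5 in UAGA had 24.3% and the 5 in UAGC 23.4%, against 20.4% and 25.7%. MRPS26 (UAGG) and MRPS33 (UAGU) are the single members with their signals, at 18.5% and 13.1%. Each of these values rests on 1 to 9 genes.

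By subunit symbol, the pooled RRTS in G418 A reached 26.6% (24.8 to 28.6) for the large subunit and 23.2% (21.04 to 25.4) for the small subunit, whereas the medians ran the other way, at 20.6% and 26.9%. Untreated values were 2.08% and 1.46% for the large and 1.31% and 0.799% for the small subunit, in Untreated A and Untreated B. Members with and without a bacterial counterpart had 25.2% and 25.4% in G418 A. MRPS12, whose bacterial counterpart lies at the decoding centre, had 1, 0 and 8 readthrough reads and scored 22.9% in G418 A. MRPL58, a peptidyl-tRNA hydrolase that became a subunit of the mitochondrial ribosome, had 3, 2 and 20 readthrough reads and an RRTS of 28.02%. Both were named for their roles, after their values were seen.

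Reads also lay beyond the 3′TC. Over the 48 members with such a codon, the density there, relative to the CDS, was 0.136% (63 reads) and 0.129% (86 reads) in the untreated libraries A and B and reached 0.936% in G418 A (548 reads). This was 7.06 times the untreated mean of 0.132% ± 0.00503 (SD, n = 2), and over all transcripts the difference was 5.10-fold. MRPL27 alone held 124 of the 548 reads, against 0 in both untreated libraries, over 183 nt at 50.5% of its CDS density, and without it the difference was 5.46-fold. MRPL53 had 0, 0 and 24 reads there, over 95 nt at 37.7% of its CDS density. MRPL42 had 13, 2 and 27 reads there, over 14869 nt at 0.106% of its CDS density in G418 A. A region of this length weighs heavily in the pooled density, and the value without MRPL42 is not given here. Ahead of the CDS, the share of reads in the 5′UTR was 2.45% (Untreated A), 2.31% (Untreated B) and 2.12% (G418 A), a ratio of 0.890 to the untreated mean, against 0.894 over all transcripts.

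The other genes of mitochondrial translation were read from lists set for this purpose. All 5 mitochondrial ribosomal proteins without an MRP symbol were tested (DAP3, PTCD3, CHCHD1, AURKAIP1 and GADD45GIP1), and 0 passed for CDS density or for readthrough. Their median log2 change was 0.14 and their pooled RRTS in G418 A 23.5%. Of 12 mitochondrial translation factors 6 were tested, with a median log2 change of 0.15 and a pooled RRTS of 18.4%, and 0 passed. Of 24 genes of mitochondrial ribosome assembly and mitochondrial RNA 15 were tested, with a median log2 change of 0.00 and a pooled RRTS of 47.1% (40.9 to 53.9) from 209 reads, and 0 passed. LRPPRC held 65 and ERAL1 58 of these reads, and the median RRTS of the 15 was 37.8%. Cytosolic ribosomal proteins had a pooled RRTS of 10.6% and the genes of oxidative phosphorylation 18.4%. Of these, 14 of 61 and 6 of 59 passed for readthrough, against 3.85% of all transcripts. Both lists were read more deeply, with median CDS densities of 1085 and 370 RPKM in Untreated A against 37.7 RPKM for all transcripts. Differences between these lists and the members were not tested.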

How the data were processed

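RPFs from 3 HEK293T libraries were analysed. Per the study's methods, the authors collapsed duplicates by molecular identifier, removed linkers and noncoding RNA, and aligned reads to hg38 with STAR (GENCODE version 30), keeping the primary alignment, so that reads of near-identical copies cannot be told apart. Fragments of 28 to 35 nt were assigned to 1 transcript per gene, that with the 3′-most stop codon. The authors deposited RPM values, RPKM densities, whole-number counts and the RRTS as a ratio. They left the first 18 and last 15 nt out of the CDS and 6 nt out after the stop codon. Tables list transcripts above a minimum density, with readthrough regions of at least 18 nt. This length includes the 6 nt left out, so the shortest counted region was 12 nt. The limit of 60 nt in an alternative includes them too.

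Every nonzero RPM value was a whole multiple of 1 read (100.0%), so reads were recovered by division. The deposited CDS counts were 1 lower for 9080 of 9099 transcripts in Untreated A, for 283 in Untreated B and for 72 in G418 A, and served as an alternative. CDS reads were tested with edgeR 4.0.16 (glmQLFit and glmQLFTest, R 4.3.3) with the reads behind the RPM scale as library sizes. Readthrough reads were tested the same way with reads expected from the CDS as offset. Both fits took all 5684 transcripts whose CDS reads averaged 128 or more over the libraries, threshold 0.05 after Benjamini-Hochberg adjustment, and rest on 2 untreated libraries and 1 G418 library, so p-values measure only the spread between these samples. The scripts were tested on simulated data, where the CDS test recovered most changes. The readthrough test called few transcripts and underestimated a 16-fold rise, with a median log2 estimate of 3.18 when all but 200 transcripts were raised. Among those with at least 20 simulated reads the median was 4.02. Folds over members at 0 use a floor of 3 reads over both untreated libraries. The members named were MRPL53, any member passing the CDS test, the 8 largest changes of CDS density each way, the 10 highest RRTS in G418 A with at least 5 reads and the 6 lowest with at least 20 expected reads, and members passing the readthrough test. Other members were named after their values were seen. Alternatives were DESeq2 1.42.0, other scalings, minimums and offsets, single untreated libraries and, chosen after seeing the data, an exact conditional test of counts and the removal of members that end at another stop codon than MANE Select. Members and lists were chosen with earlier results of these data known. GENCODE version 44 served for annotation and sequences.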

Additional observations from a re-analysis of the deposited data

How the results depend on the processing

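No paired analysis was possible because the groups share a single replicate letter. Of 63 alternatives to the summary values 38 kept direction and side of the threshold and 25 moved, and of 316 for single genes 304 did so, 11 fell below the threshold, 1 passed it and 0 reversed. The cause of these shifts was not tested. The median log2 CDS change was 0.011 with TMM scaling, 0.0077 with median-of-ratios scaling, 0.025 with at least 500 CDS reads, 0.058 without members that end at another stop codon, and 0.067 to 0.073 with a single untreated library. Members above both untreated libraries numbered 17 with median-of-ratios scaling (32.1%, all transcripts 36.7%) and 14 of 29 with at least 500 reads (48.3%, 39.7%), where 8 were below both (27.6%, 35.3%). Members called higher in CDS density were 0 with DESeq2, both scalings and 500 reads. Over all transcripts 206 passed, against 26 with DESeq2 and 40 with 500 reads. Members called for readthrough were 0 with DESeq2, 2 with no minimum (3.70%, all transcripts 1.87%), 2 of 27 with regions of at least 60 nt (7.41%, 5.25%), 5 of 29 with 500 reads (17.2%, 11.8%; MRPL27 added) and 36 with the exact test of counts. Over all transcripts 219 passed, against 0 with DESeq2 and 2812 with the test of counts, 2810 of them higher. The pooled RRTS was 22.9% with regions of at least 60 nt, and the median in its place 22.3%. Its fold was 29.1 with 500 reads, 22.1 with 60 nt and 14.3 to 21.2 with a single untreated library. The fold beyond the 3′TC was 10.1 with 500 reads, 5.46 without MRPL27 and 6.88 to 7.26 with a single untreated library. The 5′UTR ratio was 0.998 with 500 reads, 0.834 without MRPL51 and 0.865 to 0.916 with a single untreated library. Depth limits single genes, since 3 reads are an RRTS of 0.522% to 31.3% in G418 A.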
